A study of Paspalum vaginatum with 72 samples.

Results

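Abscisic acid (ABA) genes were followed in roots and leaves of seashore paspalum (Paspalum vaginatum), a salt-tolerant turf grass, during 5 days of salt. Members were the 114 of 27743 gene models whose deposited protein name held "abscisic acid receptor", "protein phosphatase 2C", "protein kinase SAPK", "9-cis-epoxycarotenoid dioxygenase" or "abscisic acid 8'-hydroxylase". They comprised 4 dioxygenases, 5 hydroxylases, 8 receptors, 86 protein phosphatases 2C (PP2C) and 11 kinases, and 110 of them lay on 10 chromosomes. Names are matches to proteins of other species, mostly rice and Arabidopsis, and 48 members shared 21 names. The RNA-seq series compared 2 accessions, USA17-18, which the study calls salt-tolerant, and USA17-26, which it calls salt-sensitive. Roots and leaves were taken at 8, 12, 24 and 48 h and at 5 days of 400 mM NaCl and from 1 non-stressed group per accession and tissue, giving 24 groups of 3 replicates and 72 libraries. The design text gives 2-month-old plants and 3 biological replicates, whereas the methods describe 2-week-old plants in 3 containers, 6 plants per replicate, with NaCl raised by 100 mM per day. Because there was 1 non-stressed group for all times, an effect of salt and an effect of the hour of collection cannot be told apart where those hours differed. Nothing in the labels says that the replicates of a group came from separate containers, so p-values measure the spread between these samples.

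ABA is made from carotenoids, and 9-cis-epoxycarotenoid dioxygenase (NCED) makes the cleavage that commits the pathway. ABA 8′-hydroxylases, which are cytochrome P450 enzymes, inactivate the hormone. Receptors of the PYR/PYL family bind ABA and then block phosphatases of PP2C clade A, though not all equally, which otherwise hold SnRK2 kinases (called SAPK in rice) inactive. The freed kinases phosphorylate transcription factors and ion channels, and ABA is known for closing stomata in leaves and for raising desiccation-protection proteins in stressed tissue. Most plant PP2Cs lie outside clade A and act in other pathways, so the 13 members with clade A names are given apart from the other PP2Cs.

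Values are deposited FPKM (fragments scaled by gene length and library size), so that genes can be compared in level. Their sum per library was 671959 to 774486, between 17555 and 20676 genes reached 1 FPKM, and the sequencing depth is unknown. Differences are on the log2(FPKM + 1) scale, which understates changes of low genes, and are given with their standard error. A gene was called when limma's Benjamini-Hochberg adjusted p was at most 0.05 and its log2 difference at least 1.5 in size, and "rose" and "fell" are used for called genes. Of the 114 members, 107 were tested in at least 1 tissue, and 5 stayed under 1 FPKM in every library. In all, 7 libraries stood apart from the other replicates of their group by their correlations. Replicate 3 of USA17-26 roots at 5 days was the highest of its group for 16 of the 21 members that rose in those roots. In that library the summed FPKM of ABA-response protein genes was 6592, against 1288 and 1636 in the other 2 libraries of its group and 791.5 to 883.6 in non-stressed USA17-26 roots. Photosynthesis genes (43, summed) marked the tissues: non-stressed roots held 21.46 to 30.34 FPKM in USA17-18 and 40.28 to 60.12 FPKM in USA17-26, and non-stressed leaves held 58237 to 75005 FPKM in USA17-18 and 20317 to 51707 FPKM in USA17-26. Salt-treated roots of both accessions often held more of this leaf list. In USA17-26 replicates 1, 2 and 3 held 1797, 415.4 and 138.3 FPKM at 5 days and 103.3, 104.1 and 349 FPKM at 48 h. Replicate 1 of USA17-26 at 8 h held 371 FPKM. In USA17-18 replicates 1, 2 and 3 held 105.8, 151.8 and 163.5 FPKM at 24 h and 54.07, 55.26 and 308 FPKM at 5 days. USA17-18 roots held 46.12 to 62.88 FPKM at 8 h and 72.32 to 101.3 FPKM at 48 h. Of the 31 tested genes of this list, 7 rose in USA17-18 roots and 24 in USA17-26 roots. The part of this signal in the root results was not tested.

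In both tissues of both accessions, the ABA genes called higher in salt-treated plants outnumbered those called lower. In roots of USA17-18, 22 members rose and 9 fell at 1 or more times, so that 31 of the 103 tested were called, 30.1% against 19.1% of all genes. For roots of USA17-26, 21 rose and 13 fell (34 of 103 called), 33% against 23.1% of all genes. Leaves of USA17-18 had 31 members that rose and 13 that fell (44 of 103 called), 42.7% against 26.6% of all genes. For leaves of USA17-26, 23 rose and 16 fell (39 of 103 called), 37.9% against 26.5% of all genes, and this split was 30 higher and 11 lower after median-ratio scaling. Over all genes the higher and lower shares were 9.76% and 9.43% in USA17-18 roots, 11.9% and 11.4% in USA17-26 roots, 15.5% and 11.7% in USA17-18 leaves and 10.4% and 16.4% in USA17-26 leaves. All-gene medians shifted too, by −0.57 in leaves of USA17-26 and −0.18 in leaves of USA17-18 at 24 h, against 0.19 in leaves of USA17-18 at 8 h.

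**Figure D1:**
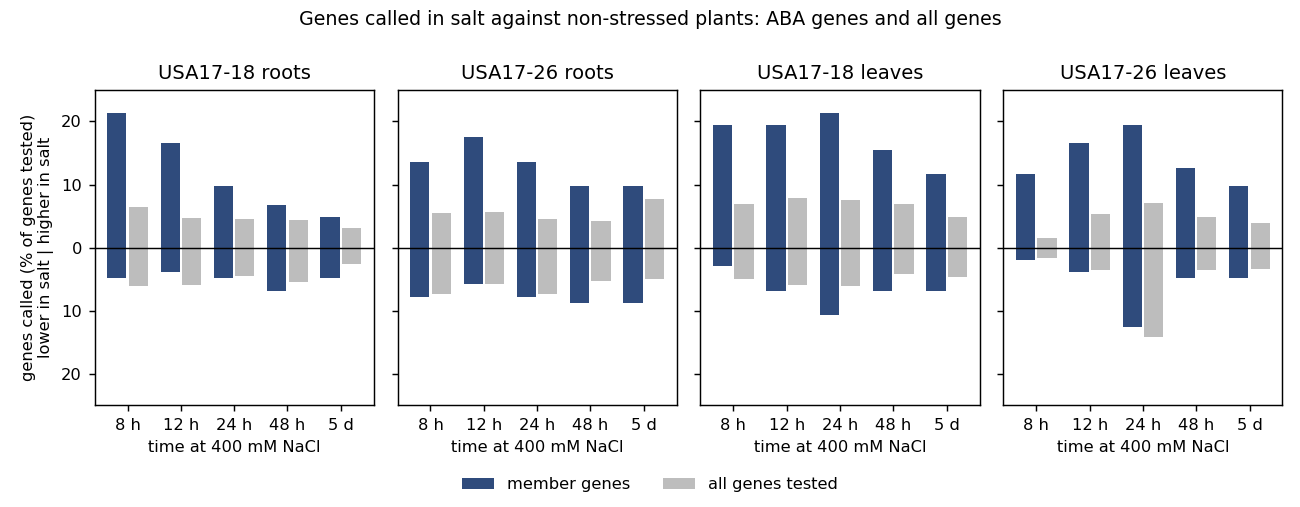
Percent of the 103 tested ABA genes (vertical axis, dark bars) called higher (upward) or lower (downward) than in non-stressed plants at each salt time (horizontal axis), with the same percent over all genes (grey bars), in roots and leaves of both accessions. In USA17-18 roots 22 members were higher at 8 h and 5 at 5 days, against 20 at 8 h and 12 at 5 days in USA17-18 leaves.

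The most members rose at 8 h or 12 h in roots and at 24 h in leaves, and this difference in counts was not tested. In roots of USA17-18 the number of members that rose was 22, 17, 10, 7 and 5 of 103 at 8, 12, 24, 48 h and 5 days, while the share of all genes that rose was 6.46%, 4.71%, 4.61%, 4.36% and 3.07%. Roots of USA17-26 gave 14, 18, 14, 10 and 10 members at the same times, against 5.53%, 5.66%, 4.5%, 4.2% and 7.67% of all genes. Leaf counts were highest at 24 h, with 22 members up in USA17-18 against 7.57% of all genes and 20 in USA17-26 against 7.06%. Leaves of USA17-18 had 20 members up at 8 h and 12 at 5 days, against 6.88% and 4.9% of all genes. The median of all members in USA17-18 leaves was 0.58 at 8 h and −0.01 at 24 h, against 0.19 and −0.18 over all genes, so the called members did not stand for the whole set. Across the 20 salt contrasts 62 of the 107 tested members were called at least once, against 46.2% of all genes, and 34 only rose, 21 only fell and 7 did both. The called members comprised 4 of 4 NCED, 2 of 5 hydroxylases, 5 of 7 tested receptors, 46 of 80 tested PP2Cs and 5 of 11 kinases. Clock genes (20, summed) also moved, with 647.6 to 904 FPKM in USA17-18 roots at 12 h against 1620 to 1716 FPKM in non-stressed roots. Their fall was larger in leaves at 12 h, with 414.3 to 476.7 FPKM in USA17-18 against 1879 to 2749 FPKM without salt, and 363 to 426.3 FPKM in USA17-26 against 1599 to 2338 FPKM. The part of the clock in the results was not tested.

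Among the synthesis genes, 3 NCEDs rose and the leaf-abundant one fell. NCED4 (emFS27.434, chromosome 2, 44905052 to 44907210, minus strand, in the deposited table's coordinates, on a build that no source used here gives) rose in 18 of the 20 contrasts. In roots of USA17-18 it had 44.4, 40.2 and 65.5 FPKM at 8 h against 0.83, 0.86 and 1.56 FPKM in non-stressed roots, a log2 difference of 4.60 ± 0.76 (adjusted p = 3.13e-05). In leaves of USA17-18 it had 59.9, 144 and 56.4 FPKM at 24 h against 1.88, 0.10 and 0.56 FPKM without salt (5.55 ± 0.58, adjusted p = 3.1e-08). Neither pair of groups overlapped, and the root peak was at 8 h whereas the leaf peak was at 24 h. USA17-26 leaves at 24 h held 72.5, 31.6 and 23.1 FPKM against 0.11, 0.04 and 0.35 FPKM (5.06 ± 0.58). By the mean of the log2 values, USA17-26 roots were highest at 12 h, with 13.5, 39.8 and 36.5 FPKM against 0.57, 5.97 and 1.55 FPKM (3.21 ± 0.76, adjusted p = 0.00137). At 5 days USA17-26 roots held 5.66, 5.1 and 86.9 FPKM of emFS27.434, and the difference of 2.33 became 1.07 (adjusted p = 0.21) without replicate 3.

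A second dioxygenase, NCED 1 (emOS43.45, chromosome 1, 10667350 to 10669726, minus strand), stood highest in roots at 8 h in both accessions. It stood at 38.9, 44.9 and 59.5 FPKM in USA17-18 roots at 8 h against 2.91, 1.65 and 2.4 FPKM without salt (3.87 ± 0.72, adjusted p = 0.000131). In USA17-26 roots it was at 35.4, 42.9 and 135 FPKM at 8 h against 1.3, 2.04 and 1.36 FPKM (4.56 ± 0.72, adjusted p = 1.38e-05). All salt-treated roots exceeded all non-stressed ones at that time, and replicate 3 was the highest of the 3 USA17-26 libraries. Leaves of USA17-18 reached 48.0, 55.1 and 29.7 FPKM at 24 h against 1.48, 0.73 and 0.46 FPKM (4.57 ± 0.32, adjusted p = 2.3e-11). Leaves of USA17-26 reached 28.9, 35.5 and 14.0 FPKM at 24 h against 0.66, 0.55 and 0.39 FPKM (4.05 ± 0.32). At 5 days USA17-26 roots held 3.0, 2.97 and 54.1 FPKM of emOS43.45, so the difference of 1.91 was 0.65 (adjusted p = 0.422) without replicate 3.

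NCED1 (emOS174.323, chromosome 4, 6857667 to 6860196, plus strand) had the opposite course and was the most abundant dioxygenase of non-stressed leaves. Over both tissues and accessions it was called lower in 10 of the 20 salt contrasts, and 6 of those 10 calls held whichever library was left out. Leaves of USA17-18 held 17.2, 21.3 and 20.1 FPKM at 12 h against 218, 726 and 473 FPKM without salt (−4.37 ± 0.61, adjusted p = 2.96e-06). Leaves of USA17-26 held 13.8, 28.6 and 16.3 FPKM at 12 h against 168, 355 and 666 FPKM (−4.12 ± 0.61, adjusted p = 9.89e-06). It fell at all 5 times in USA17-18 leaves, with log2 differences between −4.37 and −2.27, although the call at 5 days was lost without replicate 1 of that group (−1.57, adjusted p = 0.0558). In USA17-26 leaves it fell at 12 h and 24 h, and at 8 h the 178, 177 and 135 FPKM overlapped the non-stressed values. The photosynthesis list fell in the same leaf libraries, to 3812 to 6110 FPKM in USA17-18 and 3397 to 4792 FPKM in USA17-26 at 12 h, whereas a senescence and chlorophyll breakdown list (24 genes, summed) was at 2126 to 3576 FPKM in USA17-18 leaves at 12 h against 438.7 to 717.4 FPKM without salt, and at 575.7 to 2157 FPKM in USA17-26 leaves against 392.9 to 580.7 FPKM. The part of these lists in the fall of emOS174.323 was not tested. In these bulk tissues, fewer cells of a type and less RNA per cell cannot be told apart. Roots held at most 7.56 FPKM of this gene, in the USA17-26 library at 5 days with 1797 FPKM of the leaf list, and the difference of non-stressed roots from leaves was −6.61 ± 0.64 in USA17-18 and −6.56 ± 0.64 in USA17-26.

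NCED5 (emOS59.81, chromosome 8, 40631585 to 40633384, plus strand) rose only in roots among the contrasts tested, and its root level differed between the accessions at 8 h and 24 h. USA17-18 roots held 6.2, 5.55 and 8.14 FPKM at 8 h against 0.06, 0.08 and 0.08 FPKM without salt (2.82 ± 0.37, adjusted p = 1.32e-06). USA17-26 roots held 9.6, 6.13 and 6.67 FPKM at 24 h against 0.04, 0.06 and 0.11 FPKM (2.96 ± 0.37, adjusted p = 5.03e-07). At 8 h the 6.2, 5.55 and 8.14 FPKM of USA17-18 stood above the 0.44, 2.17 and 1.21 FPKM of USA17-26 (1.81 ± 0.37, adjusted p = 0.00176). At 24 h the order was the other way, with 0.95, 1.47 and 0.36 FPKM in USA17-18 below 9.6, 6.13 and 6.67 FPKM in USA17-26 (−2.16 ± 0.37, adjusted p = 0.000253). No library of one accession overlapped the other at either time. The difference in response at 8 h, 1.8 ± 0.53, was not called (adjusted p = 0.0806). The difference in response at 24 h was −2.16 ± 0.53 (adjusted p = 0.0289), but it was lost in turn without replicate 1 (−2.17, adjusted p = 0.0691), replicate 2 (−2.16, adjusted p = 0.062) or replicate 3 (−2.16, adjusted p = 0.0632) of non-stressed USA17-18 roots, replicate 1 (−2.19, adjusted p = 0.0513) or replicate 3 (−1.93, adjusted p = 0.0882) of USA17-18 roots at 24 h, replicate 2 (−2.15, adjusted p = 0.0778) or replicate 3 (−2.19, adjusted p = 0.0754) of non-stressed USA17-26 roots, or replicate 1 (−1.99, adjusted p = 0.0838) of USA17-26 roots at 24 h.

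**Figure D2:**
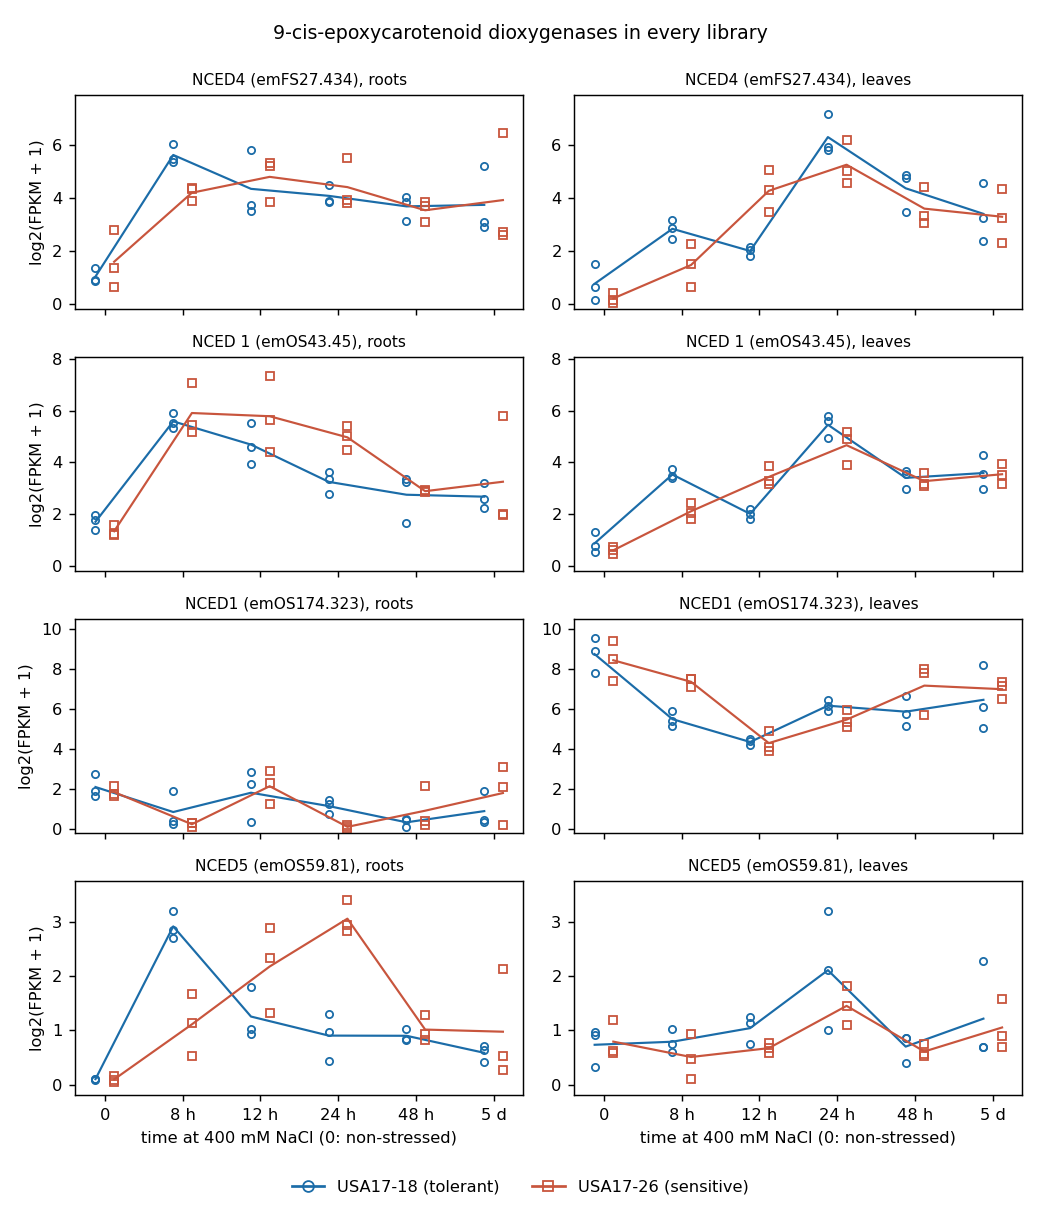
Level of the 4 dioxygenase genes, as log2(FPKM + 1), in each library of roots (left) and leaves (right) over salt time. Circles are USA17-18, squares USA17-26, and lines join the means of the log2 values. The root peaks of emFS27.434 and emOS43.45 come at 8 to 12 h and their leaf peaks at 24 h, while emOS174.323 is highest in non-stressed leaves.

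Of the 5 genes for ABA 8′-hydroxylase, which inactivates ABA, 2 were called in a salt contrast, against 46.2% of all genes. Each of these 2 differed between the accessions. ABA 8′-hydroxylase 1 (emOS174.328, chromosome 4, 6882163 to 6885353, minus strand, 21966 bases from emOS174.323) had 107, 54.7 and 92.9 FPKM in USA17-18 leaves at 8 h against 8.11, 9.3 and 11.8 FPKM without salt (2.96 ± 0.36, adjusted p = 3.22e-07). In USA17-26 leaves it had 15.6, 17.7 and 16.8 FPKM at 8 h against 8.78, 8.21 and 20.4 FPKM (0.51 ± 0.36, adjusted p = 0.318). Salt and non-stressed leaves were thus apart in USA17-18 and overlapped in USA17-26. The difference between the accessions in response was 2.46 ± 0.51 (adjusted p = 0.00998), and it was called whichever library was left out. By 12 h USA17-18 leaves were back at 10.4, 13.2 and 13.7 FPKM, while USA17-26 leaves held 10.2, 35.8 and 36.3 FPKM (1.00 ± 0.36 over non-stressed, not called). Non-stressed roots held 42.0, 35.7 and 37.5 FPKM of emOS174.328 in USA17-18, above leaves by 1.89 ± 0.34, and 52.6, 33.9 and 68 FPKM in USA17-26, above leaves by 2.02 ± 0.34.

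ABA 8′-hydroxylase 3 (emOS99.208, chromosome 1, 1264878 to 1266915, minus strand) was a gene of non-stressed roots of USA17-26. Those libraries held 3.74, 39.9 and 35.4 FPKM, whereas non-stressed roots of USA17-18 held 0.33, 0.58 and 0.45 FPKM (USA17-18 minus USA17-26, −3.73 ± 0.60, adjusted p = 0.000116). Salt-treated roots of USA17-26 fell to 0.72, 0.38 and 0.44 FPKM at 24 h (−3.67 ± 0.60, adjusted p = 2.29e-05), and the fall was called at all 5 times, with differences between −3.70 and −2.87. In USA17-18 roots no library exceeded 3.24 FPKM at any time, so the gene had little room to fall there. A difference in salt response and the difference in non-stressed level therefore cannot be told apart. The response differed between accessions by 4.33 ± 0.85 at 8 h (adjusted p = 0.00647) and 4.16 ± 0.85 at 24 h (adjusted p = 0.00871), and both were called whichever library was left out. At 12 h it differed by 3.59 ± 0.85 (adjusted p = 0.0251), a call lost in turn without replicate 1 or 3 of non-stressed USA17-18 roots, replicate 3 of USA17-18 roots at 12 h, replicate 2 or 3 of non-stressed USA17-26 roots or replicate 1 or 2 of USA17-26 roots at 12 h, with values between 3.04 and 3.59 (adjusted p between 0.0548 and 0.11). At 48 h the 3.47 ± 0.85 (adjusted p = 0.031) was lost in turn without any replicate of non-stressed USA17-18 roots, replicate 2 or 3 of USA17-18 roots at 48 h, replicate 2 or 3 of non-stressed USA17-26 roots or replicate 3 of USA17-26 roots at 48 h, with values between 2.93 and 3.53 (adjusted p between 0.0542 and 0.127). The 2.64 ± 0.85 at 5 days was not called (adjusted p = 0.125). The 3 non-stressed USA17-26 roots spread widely for emOS99.208, replicate 1 being by far the lowest. The other hydroxylase genes, emFS0.37, emOS181.594 and emOS114.8, were low and not called in a salt contrast, and emFS0.37 stayed at or below 1.48 FPKM in USA17-18 leaves, with a largest difference of 0.95. Of these, emFS0.37 and emOS181.594 also carry the name ABA 8′-hydroxylase 3.

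**Figure D3:**
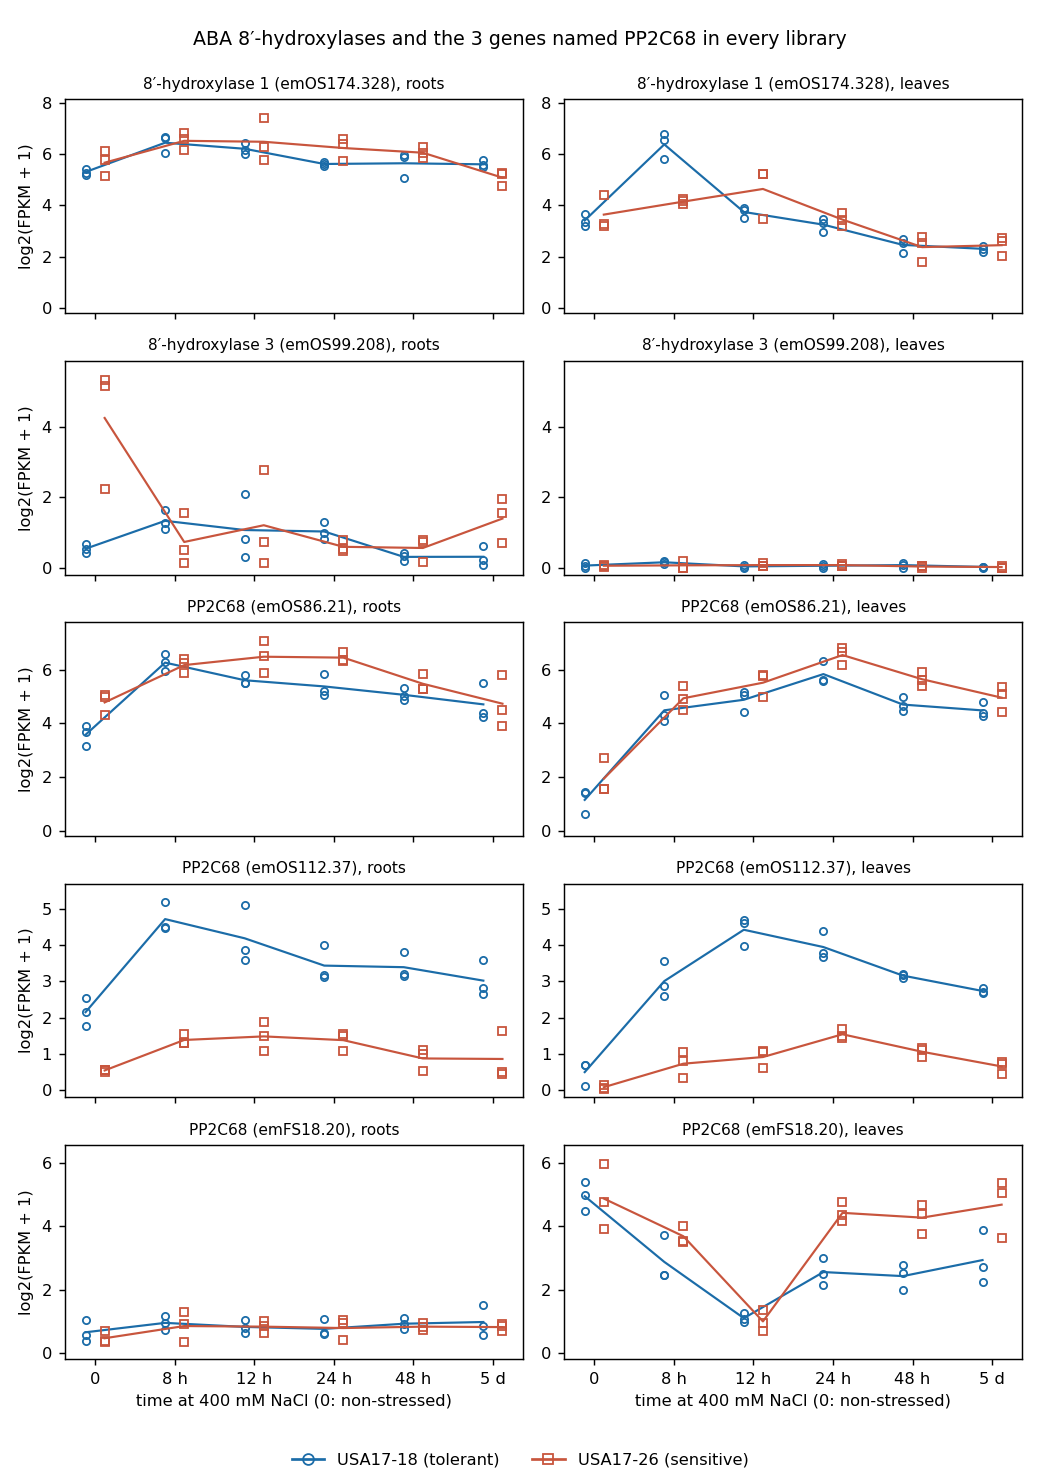
Level, as log2(FPKM + 1), of ABA 8′-hydroxylase 1 (emOS174.328), ABA 8′-hydroxylase 3 (emOS99.208) and the 3 genes named PP2C68 (emOS112.37, emOS86.21, emFS18.20) per library in roots and leaves over salt time, with USA17-18 as circles and USA17-26 as squares. emOS174.328 in USA17-18 leaves reaches 54.7 to 107 FPKM at 8 h, and emOS99.208 is highest in the non-stressed USA17-26 roots, at 3.74 to 39.9 FPKM.

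Of the 7 tested receptor genes, 5 were called in a salt contrast, against 46.2% of all genes. Among them PYL8, PYL4 and PYL5 fell in the most contrasts. PYL8 (emFS26.414, chromosome 9, 12357814 to 12359988, plus strand), a receptor that in Arabidopsis acts in roots, fell in 14 of 20 contrasts. In USA17-18 roots it had 15.2, 20.7 and 15.4 FPKM at 5 days against 109, 113 and 106 FPKM without salt (−2.62 ± 0.24, adjusted p = 4.94e-09). In USA17-26 roots it had 16.2, 20.1 and 15.9 FPKM at 24 h against 121, 122 and 116 FPKM (−2.72 ± 0.24, adjusted p = 2.37e-09). Replicates were close in both groups and far from overlapping. Leaves fell further, to 9.36, 6.58 and 12.6 FPKM in USA17-18 at 24 h against 199, 292 and 254 FPKM (−4.59 ± 0.32, adjusted p = 1.79e-11). Leaves of USA17-26 held 16.6, 10.2 and 12.7 FPKM at 5 days against 202, 196 and 217 FPKM (−3.89 ± 0.32, adjusted p = 5.73e-10). At 8 h the gene was not called in any tissue, with differences from −1.01 in USA17-18 roots to 0.16 in USA17-26 leaves. Of the calls on emFS26.414, that for USA17-18 roots at 48 h was lost without replicate 1 (−1.36). The other gene named PYL8, emOS79.1157, was not called, its largest difference being −1.43.

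PYL4 (emOS55.787, chromosome 1, 47636579 to 47637742, plus strand) was root-enriched and fell at once. USA17-18 roots held 50.9, 41.6 and 50.5 FPKM at 8 h against 385, 349 and 329 FPKM without salt (−2.87 ± 0.23, adjusted p = 3.3e-10). USA17-26 roots held 46.9, 53.3 and 39.3 FPKM at 8 h against 481, 298 and 397 FPKM (−3.03 ± 0.23, adjusted p = 1.19e-10). The loss was called at every time in both accessions, and it was least at 48 h (−1.79 in USA17-18 and −1.71 in USA17-26). Non-stressed roots exceeded leaves by 3.46 ± 0.33 in USA17-18 and 4.46 ± 0.33 in USA17-26. USA17-18 leaves fell to 2.62, 9.37 and 11.5 FPKM at 24 h against 38.5, 26.3 and 30.1 FPKM (−2.05 ± 0.40, adjusted p = 0.000213), and their call at 5 days (−1.67) was lost without replicate 3 (−1.35, adjusted p = 0.0156). No leaf contrast of USA17-26 was called for emOS55.787.

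PYL5 (emFS1.885, chromosome 9, 40528923 to 40529884, minus strand) likewise fell in roots at all times. USA17-18 roots held 1.04, 0.17 and 0.66 FPKM at 24 h against 11.0, 10.1 and 13.2 FPKM without salt (−2.97 ± 0.30, adjusted p = 2.29e-08). USA17-26 roots held 1.26, 0.44 and 1.04 FPKM at 24 h against 30.5, 14.9 and 29.2 FPKM (−3.72 ± 0.30, adjusted p = 4.15e-10). In leaves of USA17-18 it moved the other way at 8 h, with 1.47, 7.11 and 8.27 FPKM against 0.87, 0.88 and 0.49 FPKM (1.72 ± 0.39, adjusted p = 0.00116). That leaf call did not hold without replicate 2 (1.46) or replicate 3 (1.37) of the 8 h leaves. The root response minus the leaf response at 8 h was −4.34 ± 0.50 in USA17-18 (adjusted p = 2.45e-09) and −4.07 ± 0.50 in USA17-26 (adjusted p = 1.5e-08).

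**Figure D4:**
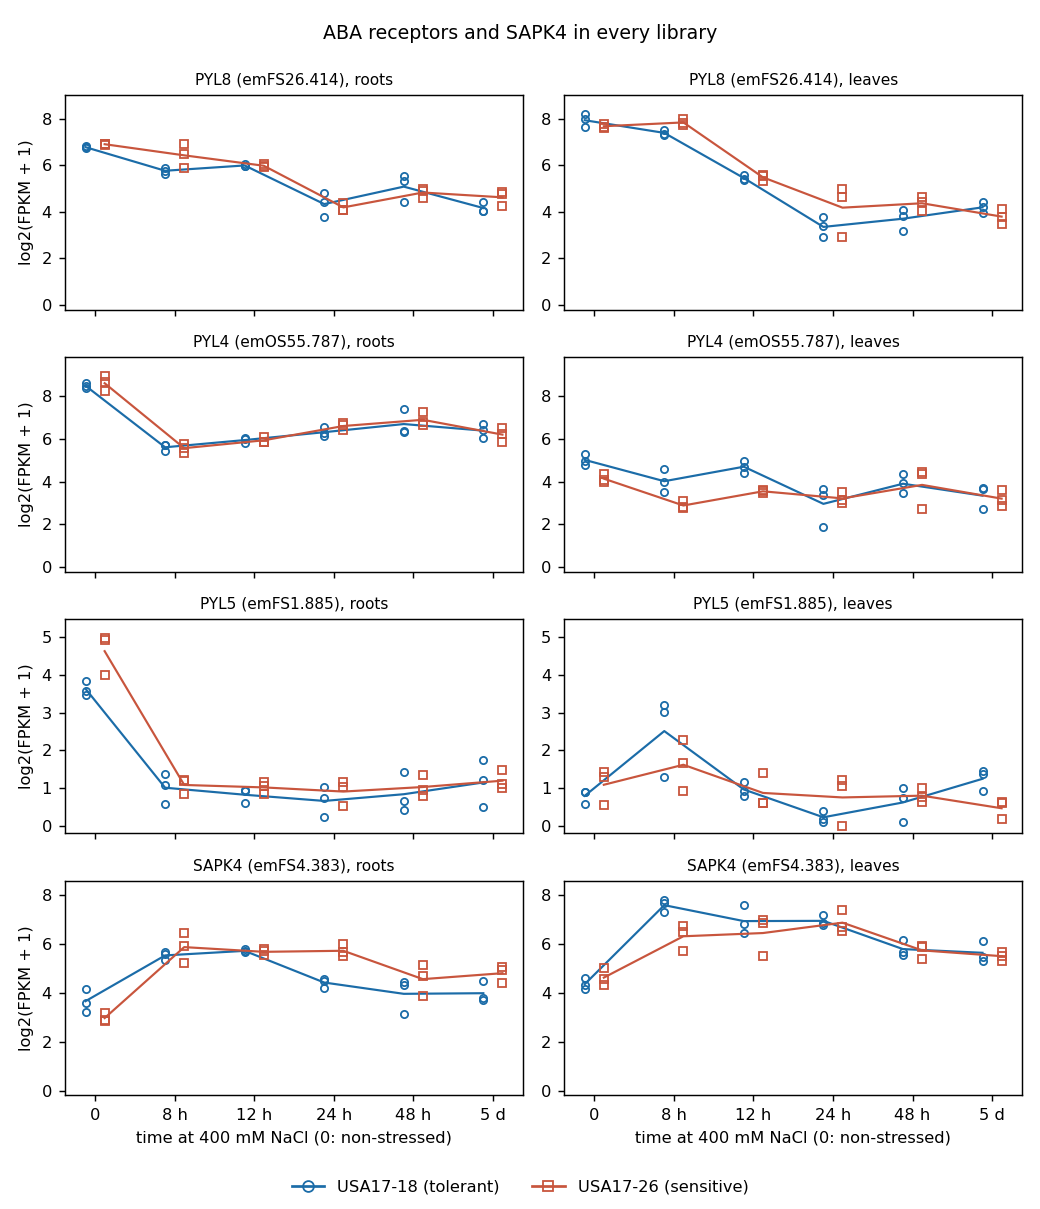
Level, as log2(FPKM + 1), of the receptors PYL8 (emFS26.414), PYL4 (emOS55.787) and PYL5 (emFS1.885) and of the kinase SAPK4 (emFS4.383) per library in roots (left) and leaves (right) over salt time, with USA17-18 as circles and USA17-26 as squares. PYL4 is at 39.3 to 53.3 FPKM in all 8 h roots against 298 to 481 FPKM without salt, while PYL8 is called lower from 12 h in leaves and from 24 h in roots.

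A pair of PYR1-named receptors differed between accessions before salt. The gene emOS55.1901 had 2.64, 2.82 and 4.75 FPKM in non-stressed USA17-18 roots and was listed at 0 in all 3 non-stressed USA17-26 roots, and no USA17-26 library exceeded 0.10 FPKM. Its only salt call, in USA17-18 leaves at 12 h (−1.51), was lost without replicate 1 (−1.39) or replicate 2 (−1.41) of the non-stressed leaves. The gene emFS6.644 ran the other way, with 0.48, 0.94 and 0.92 FPKM in USA17-18 roots against 7.2, 6.18 and 7.36 FPKM in USA17-26 roots (−2.16 ± 0.38, adjusted p = 0.000314). Its leaves did the same, at 0.86, 0.44 and 0.57 FPKM in USA17-18 against 4.16, 4.43 and 3.97 FPKM in USA17-26 (−1.68 ± 0.29, adjusted p = 0.000228). Near-identical copies can share or lose reads in alignment to 1 genome, and whether the accessions differ here in sequence was not tested. The only receptor that rose in a root contrast was PYL2 (emOS168.204), at 6.45, 7.21 and 7.35 FPKM in USA17-18 roots at 8 h against 1.1, 2.27 and 1.57 FPKM (1.62 ± 0.33), and that call was lost without replicate 1 of the non-stressed roots (1.46, adjusted p = 0.00415). PYL6 (emFS18.1701) stayed at or below 0.19 FPKM.

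Most tested clade A phosphatases rose at some time in both tissues. In roots of each accession 9 of 12 tested rose at some time, against 9.76% of all genes in USA17-18 and 11.9% in USA17-26. In leaves 9 of 11 rose in USA17-18 and 8 of 11 in USA17-26, against 15.5% and 10.4% of all genes, and 1 fell in each, against 11.7% and 16.4%. Their median log2 difference was 2.63 in USA17-18 roots and 1.42 in USA17-26 roots at 8 h, and 3.45 in USA17-18 leaves and 3.55 in USA17-26 leaves at 24 h. At 5 days the medians were lower, at 1.08 in USA17-18 roots and 1.01 in USA17-26 roots, and 2.24 in USA17-18 leaves and 1.76 in USA17-26 leaves. All-gene medians stayed between −0.57 and 0.19 throughout.

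OsPP2C30 (emOS55.579, chromosome 1, 49036109 to 49038574, plus strand) rose in all 20 contrasts. USA17-18 roots had 44.4, 53.9 and 45.2 FPKM at 8 h against 0.26, 0.17 and 0.24 FPKM without salt (5.31 ± 0.48, adjusted p = 2.4e-09). USA17-26 roots had 43.1, 84.0 and 45.1 FPKM at 12 h against 0.32, 2.07 and 0.73 FPKM (4.86 ± 0.48, adjusted p = 9.76e-09). Non-stressed roots thus stood at or below 2.07 FPKM, and these salt-treated root libraries were all far above them. In USA17-18 leaves it had 337, 211 and 179.9 FPKM at 24 h against 3.59, 6.03 and 1.2 FPKM (5.83 ± 0.47, adjusted p = 3.62e-10). In USA17-26 leaves it had 279.9, 297 and 178 FPKM at 24 h against 3.51, 4.56 and 19.1 FPKM (4.95 ± 0.47, adjusted p = 8.83e-09). The highest root value of emOS55.579 at 5 days was again replicate 3 of USA17-26, at 82.3 FPKM beside 12.2 and 14.4 FPKM, and this contrast was called with or without it.

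AtPP2C75 (emFS5.244, chromosome 6, 38361827 to 38367136, plus strand), named for an Arabidopsis phosphatase that acts in seed ABA response, also rose in all 20. It had 56.9, 83.3 and 50.1 FPKM in USA17-18 roots at 8 h against 0.36, 0.31 and 0.26 FPKM without salt (5.59 ± 0.43, adjusted p = 1.44e-10). In USA17-26 roots it had 88.2, 71.0 and 67.5 FPKM at 24 h against 0.14, 0.78 and 0.51 FPKM (5.71 ± 0.43). Root maxima of emFS5.244 therefore came at 8 h in USA17-18 and at 24 h in USA17-26. Leaves at 24 h held 129, 113 and 80.7 FPKM in USA17-18 against 1.86, 0.97 and 0.21 FPKM (5.81 ± 0.32), and 51.9, 122 and 80.3 FPKM in USA17-26 against 0.41, 0.44 and 0.50 FPKM (5.80 ± 0.32).

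OsPP2C49 (emFS1.970, chromosome 9) rose in 20 contrasts, by 1.78 to 5.27. OsPP2C50 (emFS1.165, chromosome 9) rose in 19 and began higher, at 202, 217 and 209 FPKM in USA17-18 roots at 8 h against 20.4, 19.7 and 22.2 FPKM without salt (3.27 ± 0.23, adjusted p = 2.47e-11). OsPP2C51 (emFS1.446, chromosome 9) rose in 18, and in USA17-26 roots it had 25.2, 46.9 and 13.5 FPKM at 12 h and was listed at 0 in all 3 non-stressed libraries. OsPP2C09 (emFS18.1823) rose in 13 contrasts and OsPP2C06 (emFS18.190) in 10. OsPP2C53 (emFS7.48) had 40.9, 37.9 and 41.4 FPKM in USA17-18 roots at 24 h against 16.9, 17.5 and 17.8 FPKM without overlap (1.16, adjusted p = 3.55e-09), under the fold needed for a call. OsPP2C08 (emFS18.636) was called once, at 4.54, 4.42 and 2.87 FPKM in USA17-26 roots at 12 h against 0.07, 0 and 0.50 FPKM (2.06 ± 0.26). AtPP2C56 (emFS24.662), the match to Arabidopsis ABI1, never exceeded 0.04 FPKM.

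**Figure D5:**
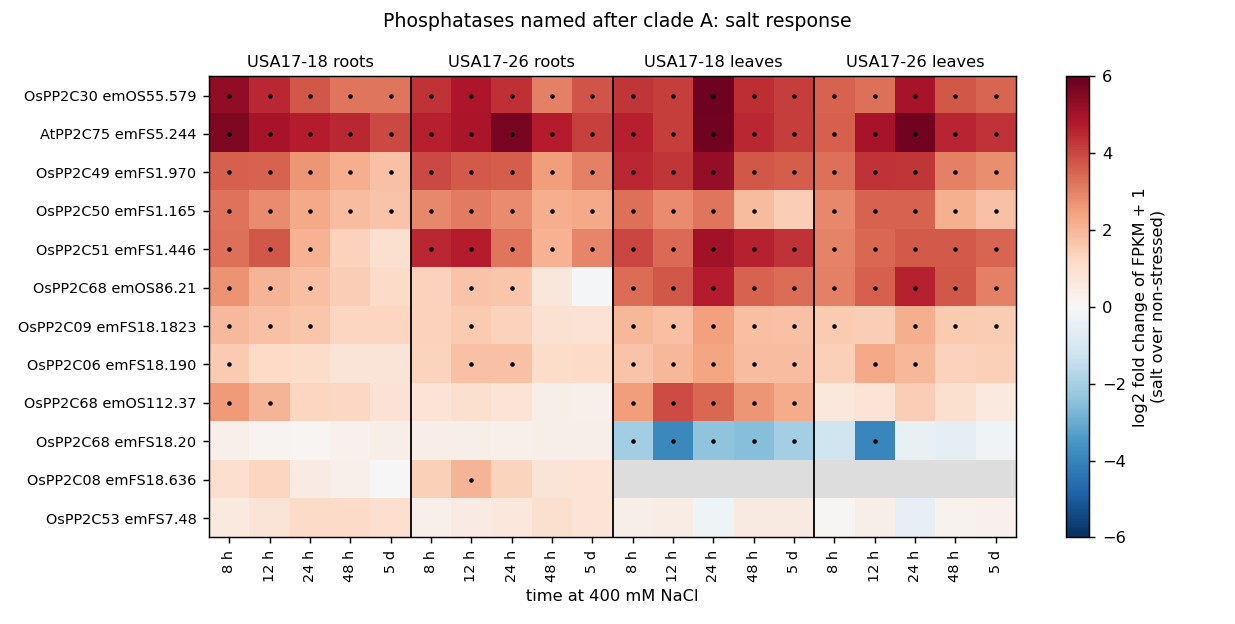
Log2 difference from non-stressed plants for the 12 tested clade A phosphatases (rows) in the 20 salt contrasts (columns, by tissue, accession and time), with dots on called cells and grey where a gene was not tested in that tissue. OsPP2C30, OsPP2C49 and AtPP2C75 carry a dot in 20 of 20 columns, and emFS18.20 is the row that falls, in leaves.

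Of the clade A genes, 3 carried the name OsPP2C68 and behaved differently. The gene emOS86.21 (chromosome 2) rose in 15 contrasts, with 80.0, 47.5 and 46.8 FPKM in USA17-18 leaves at 24 h against 1.71, 1.64 and 0.52 FPKM without salt (4.69 ± 0.34, adjusted p = 3.71e-11). The gene emFS18.20 (chromosome 3) was leaf-abundant and fell, to 0.94, 1.39 and 1.09 FPKM in USA17-18 leaves at 12 h against 21.4, 30.9 and 41.2 FPKM (−3.87 ± 0.47, adjusted p = 3.41e-07). In USA17-26 leaves emFS18.20 had 1.56, 0.61 and 0.90 FPKM at 12 h against 14.1, 26.2 and 62.2 FPKM (−3.90 ± 0.47, adjusted p = 4.33e-07). That fall was called at all 5 times in USA17-18 leaves but at 12 h alone in USA17-26 leaves, where the 24 h values of 26.4, 19.5 and 16.9 FPKM overlapped the non-stressed ones. No accession difference in the response of emFS18.20 was called. Roots held at most 1.85 FPKM of it, and the difference of non-stressed roots from leaves was −4.32 ± 0.38 in USA17-18 and −4.43 ± 0.38 in USA17-26.

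The third gene of that name, emOS112.37, which lies on an unplaced sequence, was called higher in USA17-18 only, although in USA17-26 leaves at 24 h it came close to the fold needed, at 1.84, 2.23 and 1.7 FPKM (1.46 ± 0.24, adjusted p = 3.76e-05). USA17-18 leaves held 14.6, 23.4 and 25.2 FPKM at 12 h against 0.61, 0.61 and 0.09 FPKM without salt (3.93 ± 0.24, adjusted p = 1.21e-12). USA17-26 leaves held 0.53, 1.13 and 1.06 FPKM at 12 h against 0.04, 0.03 and 0.11 FPKM (0.83 ± 0.24, adjusted p = 0.00998). Both accessions' salt-treated leaves were above their own non-stressed leaves, at very different levels. The response differed by 3.10 ± 0.34 at 12 h (adjusted p = 9.9e-06), called whichever library was left out. At 48 h the difference of 1.68 was lost without replicate 3 of non-stressed USA17-18 leaves (1.5, adjusted p = 0.0393), and likewise at 5 days (1.67, and 1.48 without it, adjusted p = 0.0423). With a pseudocount of 0.1, the response differences at 8 h, 24 h, 48 h and 5 days were no longer called. Roots at 8 h held 35.2, 21.4 and 21.6 FPKM of emOS112.37 in USA17-18 against 1.47, 1.46 and 1.94 FPKM in USA17-26 (3.34 ± 0.35, adjusted p = 1.69e-07). Since USA17-26 never passed 2.66 FPKM, a difference in level and a difference in read alignment between accessions cannot be told apart.

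Outside clade A, PP2Cs moved in both directions. Neighbouring models AtPP2C39 (emOS91.1145, chromosome 2, 6316584 to 6317294) and OsPP2C63 (emOS91.1144, chromosome 2, 6317311 to 6317764), 16 bases apart and possibly 1 gene, rose in 18 and 17 contrasts. The first had 22.3, 21.3 and 37 FPKM in USA17-18 leaves at 8 h against 0.04, 0.23 and 0 FPKM without salt (4.64 ± 0.55, adjusted p = 2.53e-07). OsPP2C02 (emOS120.306), whose neighbouring model emOS120.307 has the same name, had 142, 157 and 274 FPKM in USA17-18 roots at 8 h against 22.1, 22.9 and 24.6 FPKM (2.93). Salt-treated libraries of each lay wholly above their controls. In leaves OsPP2C54 (emFS4.1771) fell, to 7.24, 9.01 and 7.71 FPKM in USA17-18 at 24 h against 31.6, 32.5 and 37.1 FPKM (−1.95 ± 0.21, adjusted p = 3.73e-08). OsPP2C11 (emOS79.660) fell in USA17-26 leaves at 24 h, to 16.8, 6.03 and 23 FPKM against 106, 73.4 and 102 FPKM (−2.70 ± 0.58, adjusted p = 0.000874). OsPP2C69 (emOS91.230) fell in 10 contrasts, with 0.08, 0 and 0 FPKM in USA17-26 leaves at 24 h against 11.0, 4.7 and 2.19 FPKM (−2.55 ± 0.51, adjusted p = 0.000348). Its fall in USA17-18 leaves at 8 h (−1.91) was lost without replicate 1 of the non-stressed leaves (−1.31, adjusted p = 0.0513).

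Of the PP2Cs, 3 were abundant in non-stressed roots and fell there, while they rose in leaves of at least 1 accession. OsPP2C39 (emFS22.1333) had 71.0, 98.5 and 66.4 FPKM in USA17-18 roots at 48 h against 369, 385 and 382 FPKM without salt (−2.28 ± 0.26, adjusted p = 1.32e-07). In USA17-18 leaves it had 48.7, 52.0 and 42.7 FPKM at 24 h against 13.1, 10.3 and 9.67 FPKM (2.03 ± 0.17, adjusted p = 9.48e-10). These groups did not overlap in either tissue, and the root response minus the leaf response at 24 h was −4.17 ± 0.31 (adjusted p = 5.01e-15). In USA17-26 the tissue difference for emFS22.1333 was −3.35 ± 0.31 at 5 days (adjusted p = 9.38e-12), although its leaves were not called at any time.

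OsPP2C12 (emOS79.985) held 45.1, 41.5 and 31.0 FPKM in USA17-18 roots at 48 h against 208, 219.7 and 223 FPKM without salt (−2.46 ± 0.29, adjusted p = 2.48e-07). Its leaves at 48 h held 59.0, 105 and 44.1 FPKM against 28.5, 17.7 and 15 FPKM (1.68 ± 0.40, adjusted p = 0.00153), a call lost without replicate 3 of the non-stressed leaves (1.49) or replicate 2 at 48 h (1.33). The tissues still differed in response by −4.13 ± 0.50 (adjusted p = 7.81e-09), whichever library was left out. OsPP2C32 (emOS55.754) was at 65.1, 500.2 and 257 FPKM in USA17-18 leaves at 24 h against 9.88, 7.36 and 6.58 FPKM (4.53 ± 0.74, adjusted p = 2.53e-05). In USA17-26 roots it was at 9.38, 12.5 and 13.5 FPKM at 48 h against 56.5, 165 and 82.2 FPKM (−2.87 ± 0.60, adjusted p = 0.00037). The 24 h leaves of emOS55.754 spanned a wide range but all exceeded the non-stressed ones.

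Of the 11 SAPK kinases, 3 rose and 2 fell. These 5 of 11 were near the 46.2% of all genes called in at least 1 salt contrast. SAPK4 (emFS4.383, chromosome 3, 41361052 to 41366404, plus strand), of a rice kinase family activated by osmotic stress, rose in 13 contrasts. In USA17-18 leaves it had 204, 158 and 221 FPKM at 8 h against 19.1, 23.2 and 16.7 FPKM without salt (3.24 ± 0.34, adjusted p = 2.65e-08). In USA17-26 roots it had 86.9, 36.9 and 60.1 FPKM at 8 h against 6.12, 8.15 and 6.4 FPKM (2.91 ± 0.32, adjusted p = 6.76e-08). USA17-26 roots were still up at 24 h, at 63.3, 49.7 and 44.7 FPKM (2.76 ± 0.32), whereas USA17-18 roots had 23.1, 21.3 and 17.6 FPKM against 8.39, 11.0 and 17.1 FPKM (0.76 ± 0.32, not called). The response difference for emFS4.383 at 24 h was −1.99 ± 0.45 (adjusted p = 0.0186), and it was lost in turn without replicate 3 of non-stressed USA17-18 roots (−1.74, adjusted p = 0.0699), replicate 3 of USA17-18 roots at 24 h (−1.89, adjusted p = 0.0515), replicate 3 of non-stressed USA17-26 roots (−1.95, adjusted p = 0.0636) or replicate 1 of USA17-26 roots at 24 h (−1.85, adjusted p = 0.0566).

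SAPK3 (emOS55.1847), higher in roots than in leaves without salt by 3.41 ± 0.29 in USA17-18 and 2.64 ± 0.29 in USA17-26, rose in leaves. USA17-18 leaves held 29.8, 32.4 and 42.0 FPKM at 8 h against 8.88, 5.03 and 3.22 FPKM (2.49 ± 0.36, adjusted p = 5.12e-06). The calls for USA17-26 leaves at 8, 12 and 24 h (1.51, 1.67 and 1.81) were lost without replicate 3 of the non-stressed leaves (1.09, 1.24 and 1.38). SAPK10 (emOS43.161), in rice a kinase that ABA activates, fell to 19.4, 26.2 and 22 FPKM in USA17-26 leaves at 24 h against 121, 102 and 85.1 FPKM (−2.14 ± 0.17, adjusted p = 1.73e-10). USA17-18 leaves held 21.1, 20.4 and 30.3 FPKM at 24 h against 106, 96.8 and 80.1 FPKM (−1.95 ± 0.17, adjusted p = 7.67e-10). SAPK9 (emFS12.451) had 5.56, 2.12 and 5.18 FPKM in USA17-18 roots at 8 h against 0.06, 0.24 and 0.15 FPKM (2.13 ± 0.31, adjusted p = 4.6e-06). SAPK7 (emFS22.1155) fell in 4 contrasts, with differences between −1.66 and −1.51, and each of these calls was lost when some single library was left out. The genes emOS55.1337, emFS1.1086, emOS81.7, emFS6.517, emOS144.445 and emOS99.721 were not called, and the largest difference among them was 1.43, for emOS144.445 in USA17-18 leaves. Of these, emFS1.1086, tested in roots only, and emOS81.7, tested in leaves only, are also named SAPK4. Their salt differences were −0.3 to 0.72 and −0.38 to 0.66.

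Differences between the accessions were counted beside the same shares over all genes. Between USA17-18 and USA17-26, 11 of 103 members differed in roots at 1 or more times, 10.7% against 10.4% of all genes, and 12 of 103 in leaves, 11.7% against 9.25%. The salt response itself differed for 3 members in roots, 2.91% against 2.8% of all genes, and for 7 in leaves, 6.8% against 4.38%. The shares in roots were near the background. The leaf count was 28 of 103 (27.2%) without the libraries that stood apart, against 30% of all genes, so it depended on those libraries. The largest leaf response difference among called members was that of emOS112.37, given above. OsPP2C58 (emOS105.504, chromosome 10) had 0.24, 0.12 and 0.04 FPKM in USA17-18 leaves at 12 h against 1.99, 3.18 and 8.41 FPKM without salt (−2.12 ± 0.26). In USA17-26 leaves it had 1.63, 1.65 and 1.74 FPKM at 12 h against 1.59, 1.04 and 1.07 FPKM, and the response differed by −2.38 ± 0.37 (adjusted p = 0.00106).

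Between tissues, 21 of 107 members differed in non-stressed USA17-18 plants (16 higher in roots, 5 lower), 19.6% against 23.9% of all genes (13.2% higher, 10.7% lower). In USA17-26, 26 differed (15 higher, 11 lower), 24.3% against 24.2% (10.3% higher, 13.9% lower). The salt response differed between tissues for 36 of 107 in USA17-18, 33.6% against 28.7% of all genes, and for 33 in USA17-26, 30.8% against 27.2%.

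Other steps of the pathway were counted from lists of name words. Among upstream carotenoid and ABA synthesis genes, 8 of 24 rose in USA17-18 roots, against 9.76% of all genes, and 7 rose and 4 fell in USA17-26 roots, against 11.9% and 11.4%. In leaves of each accession 8 rose and 6 fell of 23, against 15.5% and 11.7% of all genes in USA17-18 and 10.4% and 16.4% in USA17-26. The words also caught some oxidases named for other substrates. A β-carotene 3-hydroxylase (emOS124.118), which makes the xanthophyll precursor, rose in 19 contrasts, with 53.7, 63.2 and 49.5 FPKM in USA17-18 leaves at 24 h against 2.4, 2.72 and 3.04 FPKM without salt (3.92 ± 0.30). Phytoene synthase (emOS91.889), the entry enzyme of carotenoid synthesis, had 153, 155 and 157 FPKM in USA17-18 leaves at 8 h against 12.8, 14.7 and 8.9 FPKM (3.59 ± 0.26). Both genes' salt-treated leaves were far above every non-stressed leaf.

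Of the ABA transport and channel genes, 3 of 7 were up in roots of each accession, against 9.76% of all genes in USA17-18 and 11.9% in USA17-26. In USA17-18 leaves 4 were up and 2 down of 9, against 15.5% and 11.7% of all genes, and in USA17-26 leaves 5 of 9 were up, against 10.4%. The exporter ABCG25 (emOS94.82) rose in 20 contrasts, with 39.7, 66.1 and 60.3 FPKM in USA17-18 roots at 8 h against 2.85, 2.3 and 2.88 FPKM without salt (3.91 ± 0.41). Of the 10 ABA-related transcription factor genes, 2 or 3 rose and at most 1 fell in each tissue and accession, against 9.76% to 15.5% of all genes up and 9.43% to 16.4% down. The transcription factor bZIP23 (emOS36.470) had 427, 326 and 174 FPKM in USA17-18 leaves at 24 h against 10.7, 12.6 and 8.84 FPKM (4.64 ± 0.33). Its 3 salt-treated leaves were all above the non-stressed ones.

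ABA-response protein genes (late embryogenesis abundant proteins and dehydrins, which protect drying cells) gave 15 up and 1 down of 30 in USA17-18 roots and 11 up in USA17-26 roots, against 9.76% and 11.9% of all genes up. Leaves gave 18 up and 2 down of 32 in USA17-18, and 16 up and 1 down in USA17-26, against 15.5% and 10.4% of all genes up. A group 3 LEA gene (emFS1.189) had 6511, 5206 and 4593 FPKM in USA17-26 roots at 24 h against 0.69, 5.7 and 1.87 FPKM without salt (10.72 ± 0.72). In non-stressed USA17-18 leaves emFS1.189 had 112 FPKM in replicate 1, 1 of the libraries that stood apart, beside 0.65 and 0.73 FPKM in the others. With any 1 library left out, 42 to 47 of the ABA members, which do not include the genes of this list, were called in USA17-18 leaves. Such counts are not by themselves a result about the members.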

How the data were processed

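The deposited table holds FPKM values for 72 libraries, with protein names and positions. Per the methods, reads were placed on the genome by HISAT2 2.1.0 after trimming by the authors with Trimmomatic 0.32, and the methods call the deposited values RPKM. No source used here gives the genome build, the strand setting or the read depth, and 0 columns were left without a sample. All values were tested as log2(FPKM + 1) with limma 3.58.1 in R 4.3.3 (trended prior), on genes with at least 1 FPKM in at least 3 libraries (22551 in leaves, 22194 in roots), in 1 fit per tissue or, for tissue comparisons, of all 72 libraries. Benjamini-Hochberg adjustment ran over all genes and contrasts of a comparison. The fit was tested on simulated data. Python 3.11.15, pandas 2.3.3 and matplotlib 3.10.9 were used for tables and plots.

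Members and lists were chosen with earlier results of these data known. Named were all members other than PP2Cs, the clade A PP2Cs, the 20 PP2Cs called in the most salt contrasts, members whose response differed between accessions, and up to 4 called genes of each other list. Pseudocounts, filters, scalings, thresholds, a replicate block and each library left out were tried as alternatives. No sequences are printed because none was used here.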

Additional observations from a re-analysis of the deposited data

Results flagged for a closer look

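These genes were picked out because their salt response differed between the accessions or between the tissues by a test of the difference itself (limma, Benjamini-Hochberg adjusted).

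Between accessions, given as USA17-18 minus USA17-26, the leaf differences called whichever library was left out were 3.10 for emOS112.37 at 12 h, 2.46 for emOS174.328 at 8 h and −2.38 for emOS105.504 at 12 h. The root difference of 4.33 for emOS99.208 at 8 h was also called whichever library was left out. It cannot be told apart from the difference in non-stressed level described with that gene. The value for emOS117.99 (OsPP2C71) at 24 h in leaves was −2.13, and its call was lost in turn without 6 libraries, with values between −1.84 (adjusted p = 0.0714, without replicate 2 of USA17-26 leaves at 24 h) and −2.14 (adjusted p = 0.0556, without replicate 2 of non-stressed USA17-26 leaves). That for emOS99.323 (OsPP2C35) at 8 h was 1.60, and it was lost without any of 6 libraries, being 1.38 (adjusted p = 0.0822) without replicate 1 of USA17-18 leaves at 8 h. The PYR1-named emFS6.644 gave 1.57 in leaves at 12 h, and 1.19 (adjusted p = 0.123) without replicate 3 of USA17-26 leaves at 12 h. The other PYR1-named gene, emOS55.1901, gave −1.51 in leaves at 12 h, where all 3 USA17-18 leaves and all 3 USA17-26 leaves were listed at 0, and −1.39 without replicate 1 or −1.41 without replicate 2 of non-stressed USA17-18 leaves. In roots at 24 h, SAPK4 (emFS4.383) gave −1.99 and NCED5 (emOS59.81) −2.16, and both were lost without single libraries, as described with those genes.

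Between tissues, given as roots minus leaves, the USA17-18 responses differed by −4.34 for emFS1.885 at 8 h, 4.04 for emFS18.20 at 12 h, −4.17 for emFS22.1333 at 24 h, 2.35 for emFS4.1771 at 12 h and −4.13 for emOS79.985 at 48 h. The USA17-26 responses differed by −4.07 for emFS1.885 at 8 h, −3.35 for emFS22.1333 at 5 days, −3.72 for emOS79.985 at 5 days, −3.07 for emOS86.21 at 5 days and −3.69 for emOS99.208 at 24 h. These tissue differences were called whichever library was left out. The gene emOS99.208 was too low in leaves to be tested there, so its value restates the root fall and says nothing about a leaf response.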

How the results depend on the processing

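Of 671 gene calls, 518 held whichever library was left out and 408 under all other settings, and 387 held under both, with no reversal. A pseudocount of 5 kept 428 of 671, the largest loss. With a fold threshold of 1, members called were 67 in USA17-18 leaves, 59 in USA17-26 leaves, 53 in roots of each accession, 21 and 20 between accessions in leaves and roots, 12 and 7 for the accession difference in leaf and root response, 35 for root minus leaf in USA17-18 and 52 for the tissue difference in USA17-26 response. With a pseudocount of 5 the counts were 24 in USA17-26 leaves, 22 in USA17-26 roots, 4 and 6 between accessions in leaves and roots, 3 for the accession difference in leaf response, 13 and 14 for root minus leaf in USA17-18 and USA17-26, and 21 for the tissue difference in USA17-26 response. A pseudocount of 0.1 gave 19 between accessions in leaves. A mean of at least 5 FPKM, which tests fewer genes, gave 7 and 6 between accessions in leaves and roots, and 4 and 1 for the difference in leaf and root response. Fitting only the groups of each contrast gave 11 and 6 for those differences, and adjusting within each contrast gave 11 in leaves. Without the libraries that stood apart, a setting chosen after seeing the data, the leaf count was 28 in place of 7. The cause of these shifts was not tested. The share of all genes called also changes with the setting. The counts under other settings, or with 1 library left out, are therefore not by themselves a result about the members. Leaving out 1 library gave 42 to 47 members in USA17-18 leaves, 36 to 43 in USA17-26 leaves, 28 to 33 in USA17-18 roots, 28 to 35 in USA17-26 roots, 11 to 15 between accessions in leaves and 10 to 17 in roots (17 without replicate 2 of USA17-26 roots at 8 h), 19 to 24 in USA17-18 and 22 to 26 in USA17-26 for root minus leaf, and 34 to 37 in USA17-18 and 30 to 35 in USA17-26 for the tissue difference. For the accession difference in response it gave 4 to 12 in leaves (4 without replicate 2 or 3 of non-stressed USA17-18 leaves or replicate 2 of non-stressed USA17-26 leaves, 12 without replicate 3 of USA17-18 leaves at 5 days, 11 without replicate 3 of non-stressed USA17-26 leaves). In roots it gave 1 to 6 (1 without replicate 3 of non-stressed or 24 h USA17-18 roots, replicate 3 of non-stressed or replicate 1 of 24 h USA17-26 roots, 5 without replicate 2 of USA17-26 roots at 8 h, 6 without replicate 2 at 24 h). Deviations of same-numbered samples correlated above 0.1 in 9 of 36 root and leaf pairs, 18 of 60 salt and non-stressed pairs and 12 of 36 accession pairs. Samples of different number were not compared, so this cannot say whether the numbers pair the samples. A replicate block left 44, 39, 31 and 34 members in the salt responses and 35 in place of 36 for the tissue difference in USA17-18. Depth is unknown, so precision rests on 3 replicates, and genes near 1 FPKM depend most on the pseudocount.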
